A study of Mus musculus with 16 samples.

Results

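Glutathione S-transferases were described in quadriceps muscle through 10 genes: Gstm1, Gstm2, Gstm4, Gstm5, Gstm7, Gsta4, Gstp1, Gstt1, Gstk1 and Gsto1. They are 10 of the 24354 rows of each deposited table. They were chosen by name, with the FPKM values of the 12 RNA libraries already in view, and no threshold set them apart. Their differences between groups are therefore given as descriptions, with no p-value. FPKM scales fragments to transcript length and to library size, so levels can be set side by side between genes. All 10 were among the genes the authors tested in both tables, none was at 0 in any library, and 9 of the 10 reached 1 FPKM in all 12 libraries. The exception was Gstm7.

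The mice were C57BL/6 males aged 4 months on normal chow, either wild type (WT) or knockout for HDAC3 (HDAC3-KO). HDAC3 is a histone deacetylase that works inside the NCoR and SMRT corepressor complexes. Muscle came from mice at rest or from mice that had run on a treadmill at 10 m/min for 3 bouts of 1 h, each separated by 1 h, and was collected 2 h after the last bout. Each of the groups WT rest, HDAC3-KO rest, WT exercise and HDAC3-KO exercise held 3 libraries of total RNA. The sources used here name neither the driver of the knockout nor the cell types it reaches.

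Cytosolic glutathione S-transferases join the thiol of glutathione to electrophiles such as lipid aldehydes, quinones and drug metabolites. They fall into classes named by Greek letters. The mu genes lie side by side in a cluster on mouse chromosome 3, alpha enzymes handle products of lipid peroxidation, and omega enzymes reduce rather than conjugate many of their substrates. The kappa enzyme, found in mitochondria and peroxisomes, is of a separate family. Another family, the microsomal transferases, sits in membranes and includes Mgst1 and Mgst3. Many transferase genes are known targets of the oxidant-responsive factor NRF2, which binds antioxidant response elements containing TGACNNNGC.

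Start regions of 4 mu-class genes are shown because neighbouring genes of this cluster differed most among the 10 members: Gstm2, Gstm1 and Gstm7 were higher in HDAC3-KO, and Gstm5 was not. Each line gives 250 bases before to 50 bases after an annotated start, read 5′ to 3′ on the gene's own strand, from RefSeq with the build GRCm38.p6. The windows are chr3:107986371-107986670 on the minus strand for Gstm2, chr3:108017769-108018068 on the minus strand for Gstm1, chr3:107931565-107931864 on the minus strand for Gstm7 and chr3:107895604-107895903 on the plus strand for Gstm5. Gstm1 and Gstm7 each have 2 annotated starts, and the downstream one is shown. Capitals mark matches, on either strand, to TGANNNNGC, the relaxed antioxidant response core, or to AGGTCA, the half-site of many nuclear receptors.
Gstm2: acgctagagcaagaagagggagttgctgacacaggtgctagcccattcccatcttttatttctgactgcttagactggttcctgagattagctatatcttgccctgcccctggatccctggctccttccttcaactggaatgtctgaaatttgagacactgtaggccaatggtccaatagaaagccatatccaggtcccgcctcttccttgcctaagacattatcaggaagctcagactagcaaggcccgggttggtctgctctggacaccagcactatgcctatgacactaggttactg
Gstm1: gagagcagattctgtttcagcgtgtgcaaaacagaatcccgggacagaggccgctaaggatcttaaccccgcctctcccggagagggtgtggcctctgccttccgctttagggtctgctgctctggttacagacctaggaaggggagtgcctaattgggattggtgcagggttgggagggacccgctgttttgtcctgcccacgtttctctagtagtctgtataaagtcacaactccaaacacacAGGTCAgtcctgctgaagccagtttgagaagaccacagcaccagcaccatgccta
Gstm7: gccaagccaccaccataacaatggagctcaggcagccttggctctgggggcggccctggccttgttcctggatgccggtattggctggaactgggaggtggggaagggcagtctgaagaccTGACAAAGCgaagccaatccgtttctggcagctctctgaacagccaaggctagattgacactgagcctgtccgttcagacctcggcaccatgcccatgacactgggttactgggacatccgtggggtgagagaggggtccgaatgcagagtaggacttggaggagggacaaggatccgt
Gstm5: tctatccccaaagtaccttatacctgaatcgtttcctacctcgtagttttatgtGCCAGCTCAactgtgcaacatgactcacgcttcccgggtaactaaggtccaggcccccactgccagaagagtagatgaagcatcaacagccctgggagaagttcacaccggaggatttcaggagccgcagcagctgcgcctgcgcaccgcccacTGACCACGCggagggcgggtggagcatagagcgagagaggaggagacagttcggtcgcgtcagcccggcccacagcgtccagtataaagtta

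The window of Gstm2, the member with the largest difference, held neither motif, and it held CCAAT at positions -85 and -77 from the annotated start. In the windows shown, Gstm1 held AGGTCA at -5, Gstm7 held TGACAAAGC at -129, and Gstm5 held TGACCACGC at -42 and a reverse-strand match at -196. The windows at the upstream starts of Gstm1 and Gstm7, not shown, held neither motif. Of the 10 members, 9 had an entry. TGANNNNGC was found in 5 of these 9 and in 41.35% of all 32841 promoter windows of this length. The stricter TGACNNNGC, which lies inside TGANNNNGC, was found in 2 of 9 and in 12.4% of all windows. AGGTCA was found in 2 of 9 and in 16.26% of all windows, and CCAAT in 6 of 9 and in 37.42%. A match is a string of letters and not a measured binding site. Gstm1, Gstm4 and Gstm7 had 2 windows each, which gives them more letters than a gene with 1.

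The 12 libraries were alike in size on this scale, with sums of 454359 to 522966 FPKM and 10137 to 10544 genes at 1 FPKM or more. No counts were used and depth is unknown, so error was taken from the scatter of the 3 libraries of a group. Whether these are separate animals is not said in the labels, so that p-values measure the spread between samples that may be technical replicates. Hdac3 ranged from 23.7 to 33.3 FPKM in the 6 WT libraries and from 4.13 to 8.16 FPKM in the 6 HDAC3-KO libraries. The 7 skeletal muscle markers were all present and summed to at least 50569 FPKM in every library. A pair of libraries stood apart by neutrophil transcripts. The 7 neutrophil markers summed to 529 FPKM in WT rest library 2 and to 351 FPKM in HDAC3-KO exercise library 3, against 1.48 to 12.6 FPKM in the 10 others. Liver transcripts were highest in HDAC3-KO exercise library 1, where 5 liver markers summed to 10.3 FPKM, against 0 to 2.90 FPKM in the 11 others.

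Gstm2 was the member that differed most between the genotypes. At rest Gstm2 measured 48.6, 32.1 and 33.3 FPKM in the WT libraries and 162, 164 and 134 FPKM in the HDAC3-KO libraries. Every HDAC3-KO library was above every WT library by a wide margin. The means were 38.0 ± 9.22 FPKM in WT and 153.5 ± 17.0 FPKM in HDAC3-KO (SD, n = 3), a 4.04-fold higher level. The difference in log2(FPKM + 1), a scale that shrinks the differences of low genes, was 2.01 with a standard error (SE) of 0.17. After exercise Gstm2 measured 38.8, 39.8 and 37.4 FPKM in WT and 117, 171 and 143 FPKM in HDAC3-KO. The groups again did not overlap. The means were 38.7 ± 1.24 and 144 ± 27.0 FPKM, a 3.72-fold higher level with a log2 difference of 1.85 (SE 0.15). The mu-class copies are near-identical in sequence, so reads could be shared among them in ways the deposited values do not show, and the level of each Gstm gene is uncertain to that extent.

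**Figure D1:**
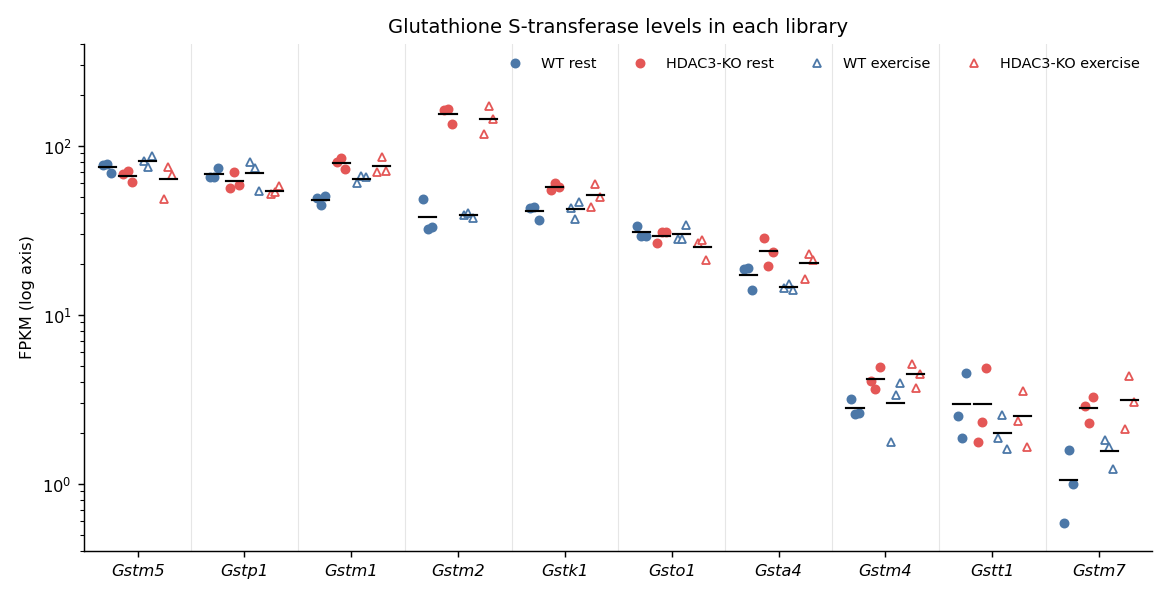
FPKM (log axis) of the 10 transferases in each of the 12 libraries. Blue is WT, red is HDAC3-KO, filled circles are rest, open triangles are exercise, and black lines are means of 3 libraries. Gstm2 is the member whose HDAC3-KO libraries, at 117 to 171 FPKM, stand farthest above its WT libraries, at 32.1 to 48.6 FPKM.

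Gstm1, the next gene along the cluster, differed at rest and less after exercise. At rest its WT libraries held 49.0, 44.4 and 50.3 FPKM and its HDAC3-KO libraries held 80.2, 85.0 and 72.5 FPKM. The groups did not overlap. The means were 47.9 ± 3.08 and 79.2 ± 6.34 FPKM (log2 difference 0.71, SE 0.10). After exercise Gstm1 stood at 59.8, 66.2 and 65.2 FPKM in WT and at 70.2, 86.2 and 70.6 FPKM in HDAC3-KO. The groups still did not overlap, but the lowest HDAC3-KO library was only a few FPKM above the highest WT library. The means were 63.7 ± 3.42 and 75.7 ± 9.13 FPKM (log2 difference 0.24, SE 0.12).

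Gstm7 was a low-level gene with a higher level in HDAC3-KO. At rest its libraries held 0.582, 1.58 and 0.998 FPKM in WT and 2.87, 2.28 and 3.24 FPKM in HDAC3-KO. The means were 1.05 ± 0.499 and 2.79 ± 0.487 FPKM (log2 difference 0.91, SE 0.22). After exercise Gstm7 measured 1.81, 1.64 and 1.21 FPKM in WT and 2.10, 4.31 and 3.03 FPKM in HDAC3-KO. The groups did not overlap in either condition, although all 12 values were under 5 FPKM. The size of its difference at rest depended on the constant added before the logarithm, with a log2 difference of 1.41 for a constant of 0.1 and of 0.37 for a constant of 5.

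Gstm4 was also low. At rest it measured 3.17, 2.60 and 2.62 FPKM in WT and 4.04, 3.61 and 4.90 FPKM in HDAC3-KO, with no overlap (log2 difference 0.45, SE 0.14). After exercise it held 1.76, 3.34 and 3.94 FPKM in WT and 5.12, 3.69 and 4.48 FPKM in HDAC3-KO, and the groups overlapped (log2 difference 0.47, SE 0.23). The means were 2.79 ± 0.323 and 4.19 ± 0.656 FPKM at rest, and 3.01 ± 1.13 and 4.43 ± 0.716 FPKM after exercise.

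Gstm5 did not share the direction of its neighbours. It was the most abundant member in WT muscle, with 77.0, 77.6 and 68.5 FPKM at rest, against 68.0, 70.7 and 61.2 FPKM in HDAC3-KO. After exercise it measured 80.7, 74.4 and 87.1 FPKM in WT and 48.1, 75.2 and 66.7 FPKM in HDAC3-KO. The groups overlapped in both conditions. The log2 differences were -0.16 (SE 0.10) at rest and -0.37 (SE 0.17) after exercise. The ratio of Gstm2 to Gstm5 within a library was 0.510 ± 0.111 in WT rest and 2.30 ± 0.103 in HDAC3-KO rest. After exercise it was 0.482 ± 0.0532 in WT and 2.28 ± 0.143 in HDAC3-KO. Gstm5 thus exceeded Gstm2 in every WT library, and Gstm2 exceeded Gstm5 in every HDAC3-KO library.

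**Figure D2:**
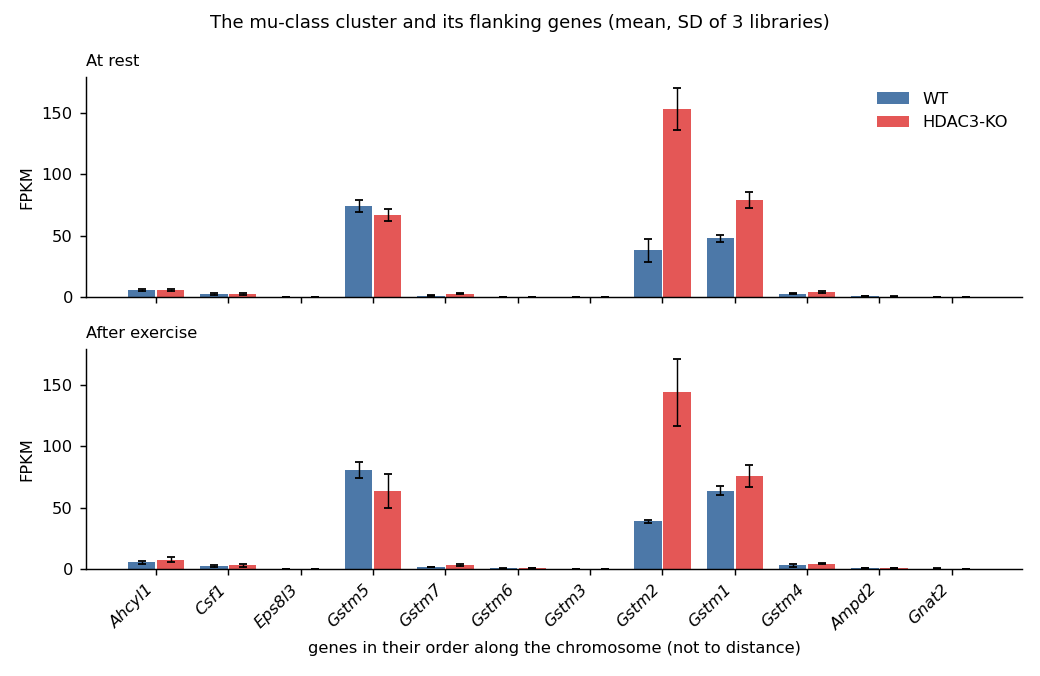
Mean FPKM (bars) and SD (error bars) of 3 libraries for the mu-class cluster and the genes on either side of it, in their order along the chromosome, at rest and after exercise, with WT in blue and HDAC3-KO in red. Gstm2 is at 38.0 and 153.5 FPKM at rest, and the genes flanking the cluster stay under 10 FPKM in all 4 groups.

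The order of genes along the chromosome, from RefSeq, is Gstm5, Gstm7, Gstm6, Gstm3, Gstm2, Gstm1 and Gstm4. The middle pair, Gstm6 and Gstm3, had group means under 0.5 FPKM in all 4 groups and was not tested. The flanking gene Ahcyl1, a regulator of inositol trisphosphate signalling, measured 5.91 ± 1.05 FPKM in WT rest and 6.05 ± 0.782 FPKM in HDAC3-KO rest. Csf1, which encodes a macrophage growth factor, measured 2.77 ± 0.667 and 2.96 ± 0.824 FPKM. Neither passed limma (adjusted p = 0.928 and 0.897). Ampd2, an AMP deaminase on the other side, was at 0.743 ± 0.140 and 0.431 ± 0.249 FPKM at rest and was not tested.

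Gsta4, the alpha-class enzyme that clears the lipid aldehyde 4-hydroxynonenal, was modestly higher in HDAC3-KO. At rest it measured 18.6, 19.0 and 14.0 FPKM in WT and 28.5, 19.5 and 23.4 FPKM in HDAC3-KO. After exercise it measured 14.5, 15.3 and 13.9 FPKM in WT and 16.4, 22.9 and 21.2 FPKM in HDAC3-KO. The groups did not overlap in either condition, but the gap at rest was under 1 FPKM. The log2 differences were 0.44 (SE 0.17) at rest and 0.43 (SE 0.14) after exercise.

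Gstk1, the kappa enzyme of mitochondria and peroxisomes, was higher in HDAC3-KO at rest. Its WT libraries held 43.0, 43.2 and 36.5 FPKM and its HDAC3-KO libraries 54.8, 60.3 and 56.6 FPKM. The groups were separate at 40.9 ± 3.83 and 57.2 ± 2.80 FPKM (log2 difference 0.48, SE 0.11). After exercise Gstk1 measured 43.0, 37.0 and 46.3 FPKM in WT and 43.6, 59.7 and 49.5 FPKM in HDAC3-KO. There the groups overlapped (log2 difference 0.26, SE 0.15).

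Gstp1, the pi-class enzyme widely expressed outside the liver, did not separate the genotypes. At rest it measured 65.4, 64.9 and 74.3 FPKM in WT and 56.3, 69.9 and 58.7 FPKM in HDAC3-KO. After exercise it measured 80.1, 73.6 and 54.2 FPKM in WT and 51.6, 53.2 and 57.7 FPKM in HDAC3-KO. The groups overlapped in both conditions, with log2 differences of -0.15 (SE 0.12) and -0.33 (SE 0.16). Its neighbour Gstp2 is a near-identical copy and may share reads with it.

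Gsto1, the omega-class enzyme, and Gstt1, the theta-class enzyme, differed little at rest. Gsto1 measured 33.6, 29.1 and 29.4 FPKM in WT rest and 26.4, 30.8 and 30.9 FPKM in HDAC3-KO rest, with overlap (log2 difference -0.06, SE 0.11). After exercise Gsto1 stood at 28.1, 27.9 and 34.0 FPKM in WT and at 26.6, 27.7 and 21.2 FPKM in HDAC3-KO. It was the only member whose HDAC3-KO libraries all lay below its WT libraries, by under 1 FPKM at the nearest pair (log2 difference -0.25, SE 0.14). Gstt1 varied more among the libraries of 1 group than between groups, from 1.86 to 4.54 FPKM in WT rest and from 1.75 to 4.87 FPKM in HDAC3-KO rest. After exercise Gstt1 ranged from 1.61 to 2.54 FPKM in WT and from 1.66 to 3.54 FPKM in HDAC3-KO.

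The log2 differences were also taken without the libraries that stood apart. Without WT rest library 2 they were 1.90 for Gstm2, 1.09 for Gstm7, 0.66 for Gstm1, 0.52 for Gsta4, 0.52 for Gstk1 and 0.41 for Gstm4. The other members lay lower in HDAC3-KO in that fit, at -0.10 for Gsto1, -0.13 for Gstm5, -0.18 for Gstp1 and -0.23 for Gstt1, which was at -0.02 with all libraries. Without HDAC3-KO exercise library 3 they were 1.84 for Gstm2, 0.67 for Gstm7, 0.46 for Gstm4, 0.39 for Gsta4, 0.29 for Gstm1 and 0.28 for Gstk1. Gstt1 then stood at 0.39, against 0.20 with all libraries, and Gsto1, Gstp1 and Gstm5 stood at -0.13, -0.38 and -0.42. Without HDAC3-KO exercise library 1, which held the liver transcripts, Gstm2 was at 1.99, Gstm7 at 0.86, Gsta4 at 0.56, Gstm4 at 0.38, Gstk1 at 0.37, Gstm1 at 0.29 and Gstt1 at 0.22. Gstm5 was then at -0.18, against -0.37 with all libraries, with Gsto1 at -0.29 and Gstp1 at -0.30.

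**Figure D3:**
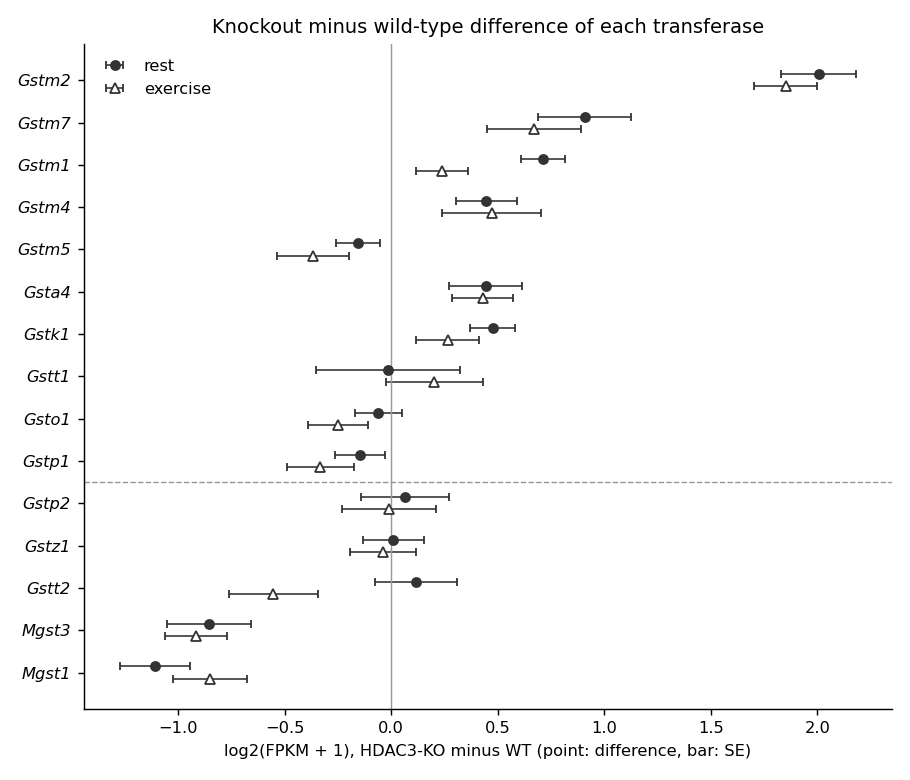
Difference between HDAC3-KO and WT in log2(FPKM + 1) for the 10 members (above the dashed line) and 5 other transferases (below it). Filled circles are rest, open triangles are exercise, and bars are SEs. Gstm2 lies at 2.01 and 1.85, and Mgst1 and Mgst3 lie between -1.11 and -0.86 at rest.

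Counted over the 10 members, differences toward higher levels in HDAC3-KO were the more common at rest. By limma at an adjusted p of 0.05, 3 of the 10 were called at rest (Gstm2, Gstm1 and Gstk1), all higher, and 4.72% of the 9204 tested genes were called, 3.04% in the higher direction. By the authors' deposited table at a q of 0.05, 4 were called, those 3 and Gstm7, with 10.8% of the tested genes. Libraries were separate with HDAC3-KO higher for 6 of the 10, as for 15.6% of the tested genes, and with HDAC3-KO lower for 0 of the 10, as for 12.4%. The median log2 difference was 0.44 over the members and 0.01 over all tested genes. Since the members were chosen with these values in view, these counts describe the choice and are no evidence about the family. Gstk1 was called in none of the 6 limma fits that left out 1 library, with log2 differences between 0.40 and 0.52. Gstm1 was not called without WT rest library 2, HDAC3-KO rest library 1 or HDAC3-KO rest library 3, with log2 differences between 0.66 and 0.78 over the 6 fits.

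After exercise fewer members were called. By limma only Gstm2 was called, 1 of the 10, with 3.73% of the 9037 tested genes called and 1.58% in the higher direction. The authors' deposited table also called 1 member, with 9.57% of the tested genes. Libraries were separate with HDAC3-KO higher for 4 of the 10 (Gstm1, Gstm2, Gstm7 and Gsta4), as for 12.4% of the tested genes, and with HDAC3-KO lower for 1 of the 10, as for 13.7%. The median log2 difference was 0.25 over the members and -0.00 over all tested genes. Gstm2 was called in all 6 fits with 1 library left out, in each condition.

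**Figure D4:**
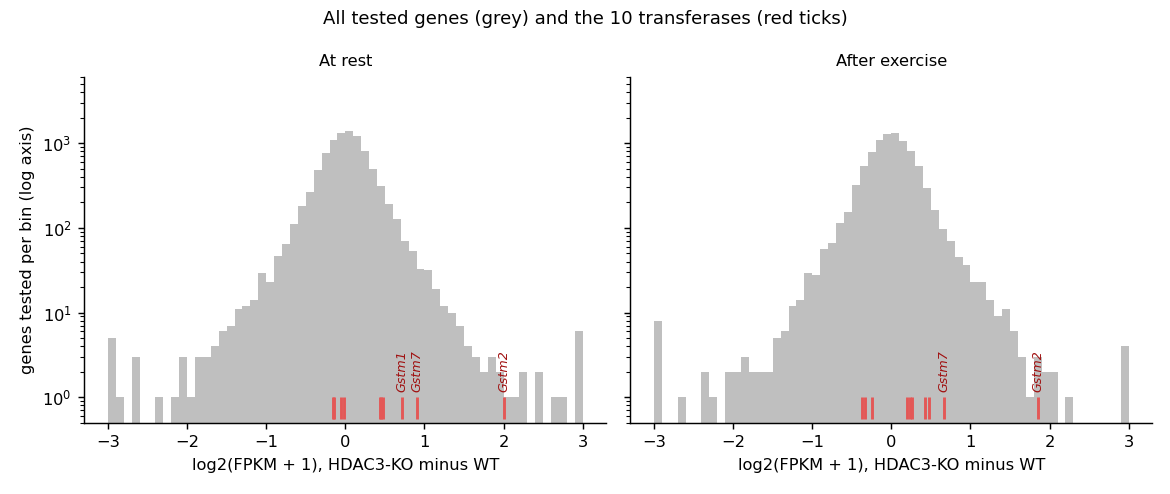
Number of tested genes (grey, log axis) by their difference between HDAC3-KO and WT in log2(FPKM + 1), at rest and after exercise, with the 10 members as red ticks. Values beyond the axis are counted in the end bins. The members run from -0.16 to 2.01 at rest and from -0.37 to 1.85 after exercise, with Gstm2 in the far right tail of all genes.

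The knockout difference was then compared between the conditions. The difference after exercise minus that at rest was -0.47 (SE 0.15) for Gstm1, -0.24 (SE 0.32) for Gstm7, -0.21 (SE 0.18) for Gstk1 and -0.15 (SE 0.24) for Gstm2. For the other members it lay between -0.21 and 0.22. By limma, 0 of the 8854 genes tested in both tables passed an adjusted p of 0.05 (0%), and 433 of them had an unadjusted p under 0.05. A difference between rest and exercise in how the members depend on genotype was therefore not established.

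Levels at rest and after exercise stood in separate tables that may have been normalized separately, so they are set side by side without a test. In WT, Gstm1 was at 47.9 ± 3.08 FPKM at rest and at 63.7 ± 3.42 FPKM after exercise, and these libraries did not overlap. That was 1 of the 10 members with WT higher after exercise, as for 7.54% of the 8854 genes tested in both tables, and 0 of the 10 with WT lower, as for 8.19%. In HDAC3-KO it was 0 of the 10 in each direction, as for 5.87% (higher after exercise) and 10% (lower) of the genes. Gstm2 was at 38.0 and 38.7 FPKM in WT and at 153.5 and 144 FPKM in HDAC3-KO. Gstt1 went from 2.97 to 2.01 FPKM in WT with overlapping libraries.

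The order of levels changed between the genotypes mainly at the top. In WT rest the order was Gstm5 at 74.4 ± 5.08 FPKM, Gstp1 at 68.2 ± 5.29, Gstm1 at 47.9, Gstk1 at 40.9, Gstm2 at 38.0, Gsto1 at 30.7 ± 2.50, Gsta4 at 17.2 ± 2.77, Gstt1 at 2.97 ± 1.40, Gstm4 at 2.79 and Gstm7 at 1.05. Neighbours in that order overlapped for Gstm5 and Gstp1, Gstk1 and Gstm2, Gstm2 and Gsto1, and Gstt1 and Gstm4. In HDAC3-KO rest Gstm2 came first and Gstm1 next, each separate from the member after it. They were followed by Gstm5 at 66.6 ± 4.88 FPKM, Gstp1 at 61.6 ± 7.26 and Gstk1 at 57.2, of which neighbours overlapped. After exercise the WT order began with Gstm5 at 80.8 ± 6.34 FPKM, Gstp1 at 69.3 ± 13.5 and Gstm1 at 63.7, which overlapped in turn. The HDAC3-KO order after exercise began with Gstm2 at 144, apart from Gstm1 at 75.7, which overlapped Gstm5 at 63.3 ± 13.9 FPKM.

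Summed over the 10 members, transferase FPKM was 324 ± 15.1 in WT rest and 481 ± 29.5 in HDAC3-KO rest. It was 346 ± 4.36 in WT exercise and 443 ± 62.3 in HDAC3-KO exercise. Without Gstm2 the sums were 286 ± 6.01 and 328 ± 14.7 FPKM at rest, and 307 ± 4.85 and 299 ± 35.3 FPKM after exercise. Gstm2 alone made up 11.7% ± 2.25 of the members' sum in WT rest and 31.8% ± 1.91 in HDAC3-KO rest. After exercise its share was 11.2% ± 0.423 and 32.3% ± 1.61. In whole muscle, fewer cells of a type and less RNA per cell cannot be told apart.

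The membrane-bound transferases, which were not among the members, differed the other way. Mgst1 measured 54.0, 73.7 and 59.1 FPKM in WT rest and 30.4, 23.1 and 31.7 FPKM in HDAC3-KO rest. Its mean fell from 62.3 ± 10.2 FPKM in WT to 28.4 ± 4.65 FPKM in HDAC3-KO, a log2 difference of -1.11 (SE 0.16) with a limma adjusted p of 0.0162. After exercise Mgst1 fell from 58.3 ± 13.7 FPKM in WT to 31.4 ± 2.59 FPKM in HDAC3-KO, a log2 difference of -0.85 (SE 0.17) with a limma adjusted p of 0.04. Mgst3, which was more abundant than any member in WT muscle, measured 203, 316 and 308 FPKM in WT rest and 133, 139 and 179 FPKM in HDAC3-KO rest. The means were 276 ± 63.4 and 150 ± 24.8 FPKM, with a log2 difference of -0.86 (SE 0.20, limma adjusted p = 0.0564), and the libraries did not overlap. After exercise Mgst3 measured 276, 294 and 263 FPKM in WT and 144, 123 and 178 FPKM in HDAC3-KO. It fell from 277 ± 15.6 FPKM in WT to 148 ± 27.6 FPKM in HDAC3-KO, a log2 difference of -0.92 (SE 0.15) with a limma adjusted p of 0.0223.

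The calls changed when 1 library was left out. At rest Mgst1 missed 0.05 without WT library 2, HDAC3-KO library 1 or HDAC3-KO library 3, with a limma adjusted p of at most 0.0754. After exercise it passed in only 1 of the 6 fits with a library left out, the one without WT library 2, and the highest limma adjusted p was 0.13. Mgst3 after exercise passed only without HDAC3-KO library 3 (limma adjusted p = 0.0241) and reached at most 0.0832 in the other fits. At rest it passed without WT library 1 (limma adjusted p = 0.0299) and reached 0.185 without WT library 2.

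**Figure D5:**
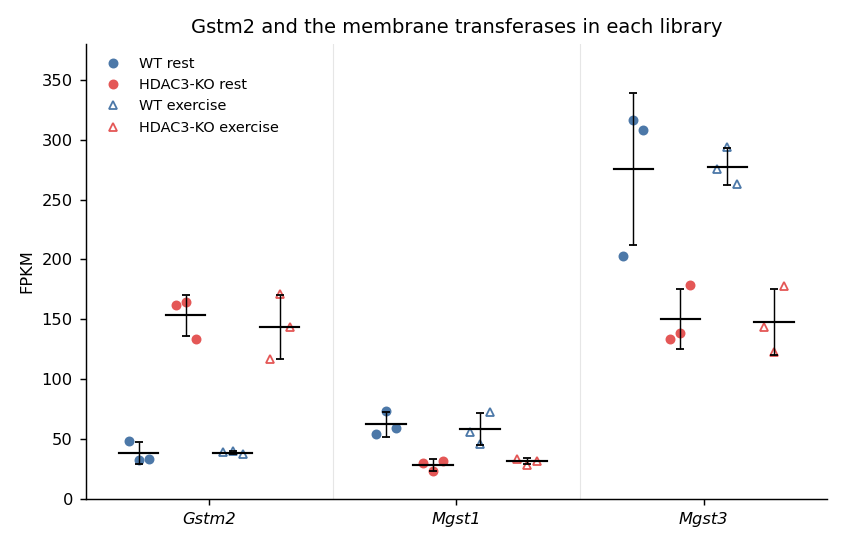
FPKM of Gstm2, Mgst1 and Mgst3 in each library, with the mean and SD of 3 libraries in black. Filled circles are rest, open triangles are exercise, blue is WT and red is HDAC3-KO. Mgst3 is at about 276 FPKM in WT and 150 FPKM in HDAC3-KO at rest, and Gstm2 goes the opposite way.

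Within a library the ratio of Gstm2 to Mgst3 was 0.150 ± 0.0781 in WT rest and 1.05 ± 0.262 in HDAC3-KO rest. After exercise it was 0.139 ± 0.00344 and 1.00 ± 0.336. Mgst1 and Mgst3 together summed to 338 ± 71.3 FPKM in WT rest and 179 ± 27.5 FPKM in HDAC3-KO rest. After exercise they summed to 336 ± 3.94 and 179 ± 29.1 FPKM. Of 16 other transferase genes present in the tables, 5 were tested. By limma 0 were called higher in either condition, 1 lower at rest and 2 lower after exercise. Over all tested genes limma called 4.72% at rest and 3.73% after exercise. Of the 5, 2 at rest and 3 after exercise had an unadjusted limma p under 0.05. So did 1975 of all 9204 tested genes at rest and 1797 of 9037 after exercise. The authors' deposited table called 0 higher and 2 lower in each condition, beside 10.8% and 9.57% of all tested genes.

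The remaining soluble transferases showed no called difference. Gstp2 measured 35.3 ± 9.60 FPKM in WT rest and 36.1 ± 4.54 FPKM in HDAC3-KO rest (limma adjusted p = 0.896). Gstz1, a zeta-class enzyme of tyrosine breakdown, measured 21.7 ± 3.61 and 21.7 ± 1.77 FPKM (limma adjusted p = 0.976). The theta-class Gstt2 measured 1.98 ± 0.0886 and 2.28 ± 0.774 FPKM at rest, and 2.47 ± 0.652 and 1.36 ± 0.428 FPKM after exercise (limma adjusted p = 0.777 and 0.198). Gstt3 measured 0.939 ± 0.0180 and 1.44 ± 0.283 FPKM at rest and was not tested. Gsta3 reached 1.38 ± 1.10 FPKM in HDAC3-KO exercise and was not tested.

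Genes of a list that covers the synthesis, recycling and breakdown of glutathione, with glutaredoxins and thioredoxins, moved in both directions at rest. Of 17 tested, 3 rose and 2 fell by limma, with a median log2 difference of 0.17 against 0.01 over all tested genes. Limma called 4.72% of all tested genes at rest, 3.04% in the higher direction. Chac1, which degrades glutathione, rose from 23.3 ± 5.44 to 43.5 ± 8.36 FPKM, with a limma adjusted p of 0.0463. The thioredoxin reductase Txnrd1 rose from 27.9 ± 0.948 to 40.4 ± 4.41 FPKM, with a limma adjusted p of 0.0417. Gss, which completes glutathione synthesis, rose from 2.54 ± 0.354 to 4.66 ± 0.710 FPKM, with a limma adjusted p of 0.0489, and is named here after its values were seen. Gclc, Gclm and Gsr, also of synthesis and recycling, were not called at rest (limma adjusted p = 0.150, 0.949 and 0.518). The glutaredoxin genes Glrx, from 19.3 ± 0.953 to 10.8 ± 1.44 FPKM, and Glrx5, from 35.0 ± 0.664 to 20.5 ± 2.99 FPKM, fell (limma adjusted p = 0.0184 and 0.0193). After exercise 0 of 17 were called by limma, beside 3.73% of all tested genes. Of the 17, 5 had an unadjusted limma p under 0.05, as did 1797 of all 9037 tested genes. The authors' deposited table called 3 of the 17 and 9.57% of all tested genes. Txnrd1 and Gss were not called in any of the 6 fits with a library left out (limma adjusted p 0.0743 to 0.163 for Txnrd1 and 0.0626 to 0.174 for Gss), and Chac1 only in the one without WT library 3 (limma adjusted p up to 0.165). Glrx missed 0.05 without WT library 2, HDAC3-KO library 1 or HDAC3-KO library 3 (limma adjusted p up to 0.0756), and Glrx5 without WT library 2, HDAC3-KO library 1 or HDAC3-KO library 2 (up to 0.0833).

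Genes listed under the supply of NADPH, which keeps glutathione reduced, rose at rest where they were called. The listed enzymes differ in how far they use NADP, and NADPH itself was not measured. Of 11 tested, 4 rose and 0 fell by limma, with a median log2 difference of 0.27 against 0.01 over all tested genes. Limma called 4.72% of all tested genes at rest, 3.04% in the higher direction. Mthfd2, a mitochondrial folate enzyme, rose from 1.80 ± 0.479 to 37.5 ± 12.2 FPKM, with a limma adjusted p of 0.00209. Idh2, the mitochondrial NADP-dependent isocitrate dehydrogenase, rose from 84.4 ± 14.8 to 195 ± 26.6 FPKM, with a limma adjusted p of 0.0148. The malic enzymes Me1, from 47.9 ± 3.06 to 71.8 ± 4.75 FPKM, and Me2, from 1.51 ± 0.202 to 2.98 ± 0.0305 FPKM, also rose (limma adjusted p = 0.0245 and 0.0384). After exercise 2 of 12 rose and 0 fell by limma, beside 3.73% of all tested genes called, 1.58% in the higher direction. The authors' deposited table called 2 higher and 1 lower, beside 9.57% of all tested genes. The lower one was Taldo1, at 42.6 ± 1.62 FPKM in WT and 29.4 ± 4.90 FPKM in HDAC3-KO (q = 0.0256, limma adjusted p = 0.0806). Mthfd2 rose from 2.39 ± 0.406 to 36.9 ± 4.09 FPKM, with a limma adjusted p of 6.3e-05. Idh2 rose from 97.3 ± 15.2 to 164 ± 21.3 FPKM (limma adjusted p = 0.0402). Mthfd2 passed in all 6 fits with a library left out in each condition. Idh2 at rest missed 0.05 without WT library 2 or HDAC3-KO library 3 (limma adjusted p up to 0.0683), and after exercise it passed in none of the 6 (0.0805 to 0.106). Me1 passed only without WT library 3 (up to 0.0936), and Me2 in none of the 6 (0.0591 to 0.134).

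Other detoxification enzymes were mixed. At rest 1 of 18 tested rose and 2 fell by limma, beside 4.72% of all tested genes called. The median log2 difference of the 18 was -0.01. Nqo1, a quinone reductase and a classical NRF2 target, rose from 18.5, 16.6 and 14.5 FPKM to 49.4, 39.8 and 41.9 FPKM (limma adjusted p = 0.00554). At rest it passed in all 6 fits with a library left out. The carbonyl reductase Cbr1 fell from 10.3 ± 1.93 to 5.60 ± 0.813 FPKM and the aldehyde oxidase Aox1 from 8.68 ± 1.09 to 4.99 ± 0.935 FPKM (limma adjusted p = 0.0416 and 0.0474). After exercise 2 of 20 rose and 1 fell, beside 3.73% of all tested genes called. Nqo1 was not among them, at 21.3 ± 4.92 FPKM in WT and 34.2 ± 2.96 FPKM in HDAC3-KO without overlap. Its limma adjusted p was 0.0835, and it passed in 0 of the 6 fits with a library left out. The authors' deposited table did not call it either (q = 0.237). Por, the electron donor of cytochrome P450 enzymes, rose from 4.52 ± 0.784 to 11.2 ± 3.35 FPKM, and Ephx1, the microsomal epoxide hydrolase, from 9.69 ± 0.537 to 14.6 ± 0.480 FPKM (limma adjusted p = 0.04 and 0.0389). Ephx2, the soluble epoxide hydrolase, fell from 24.0 ± 3.38 to 13.2 ± 3.17 FPKM, with a limma adjusted p of 0.0497. Cbr1 and Aox1 passed in none of the 6 fits with a library left out (limma adjusted p up to 0.121 and 0.149), nor did Ephx1 (up to 0.12). Por passed only without HDAC3-KO library 2 (up to 0.119), and Ephx2 only without HDAC3-KO library 1 (up to 0.15).

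Glutathione peroxidases, which use glutathione against peroxides, and the proteins that export or process glutathione conjugates had no called member by limma. This was 0 of 6 and 0 of 10 in each condition. At rest 1 of each group had an unadjusted limma p under 0.05, and after exercise 2 of each. Among all tested genes this held for 1975 of 9204 at rest and 1797 of 9037 after exercise. The authors' deposited table called 1 peroxidase at rest, beside 10.8% of all tested genes. Of the regulators tested, Hdac3 was the only one called by limma in either condition, and it fell. Nfe2l2, which encodes NRF2, measured 23.2, 20.7 and 20.9 FPKM in WT rest and 25.5, 30.1 and 33.4 FPKM in HDAC3-KO rest. Its libraries did not overlap at rest, the limma adjusted p was 0.0975, and the authors' deposited table called it (q = 0.0381). After exercise Nfe2l2 measured 27.3 ± 5.19 and 33.4 ± 7.17 FPKM, with overlap (limma adjusted p = 0.459). The authors' deposited table also called Bach1, a repressor at antioxidant response elements, and Maff, a small Maf factor, lower after exercise (q = 0.00243 and 0.0126). By limma the adjusted p of Bach1 was 0.0922 and that of Maff 0.486.

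Markers of other cells moved with genotype after exercise. The 8 macrophage markers summed to between 30.7 and 44.4 FPKM in WT exercise and between 58.0 and 87.6 FPKM in HDAC3-KO exercise. Of 5 tested, 2 rose by limma, beside 1.58% of all tested genes called in that direction. They were Cd68, from 0.888 ± 0.545 to 4.26 ± 1.45 FPKM, and Mrc1, from 2.80 ± 0.200 to 7.10 ± 1.21 FPKM (limma adjusted p = 0.0372 and 0.0144). Lyz2, the largest part of the sum, was at 26.3 ± 6.22 and 50.3 ± 12.3 FPKM and was not called by limma (adjusted p = 0.0752). The authors' deposited table called 4 of the 5 higher, beside 9.57% of all tested genes. At rest the macrophage sums overlapped, at 52.5 to 68.8 FPKM in WT and 40.6 to 67.8 FPKM in HDAC3-KO. Of the 5 tested, 2 had a positive and 3 a negative log2 difference at rest. Lyz2 was at 44.9 ± 7.09 FPKM in WT and 34.0 ± 11.1 FPKM in HDAC3-KO, with overlap. Mrc1 was at 4.67 ± 0.997 and 6.42 ± 1.09 FPKM without overlap (limma adjusted p = 0.238). Fibroblast markers summed to between 429 and 605 FPKM in WT rest and between 292 and 453 FPKM in HDAC3-KO rest. Of the 8, 0 were called by limma and 1 had an unadjusted limma p under 0.05, as did 1975 of all 9204 tested genes. Their log2 differences were negative for 7 and positive for 1, with a median of -0.28. The authors' deposited table called 2 lower, Col1a1 and Col1a2 (q = 0.00119 for each), beside 10.8% of all tested genes. Adipocyte sums overlapped in both conditions, but they were mostly Fabp4 and Lpl. In WT rest Fabp4 measured 402 ± 87.6 FPKM and Lpl 103 ± 36.7 FPKM, against 3.99 ± 1.59 FPKM for Adipoq. Of 5 liver markers, 4 were at 0 in all 3 libraries of each resting group. After exercise 2 of the 5 were at 0 in all 3 WT libraries, and each of the 5 was above 0 in at least 1 HDAC3-KO library. The sums of the other lists overlapped between genotypes, apart from those of muscle, nerve and smooth muscle after exercise. Muscle summed to 63858 to 76586 FPKM in WT and 50569 to 61810 FPKM in HDAC3-KO. The 7 muscle markers did not move as 1 after exercise. Their log2 differences were negative for 5, with Myh4 at -0.03, and positive for 2, Myh1 at 0.30 and Mb at 0.26. Limma called 1 of the 7, beside 3.73% of all tested genes. That was Myl1, a fast myosin light chain, at 15311 ± 580 FPKM in WT and lower in HDAC3-KO, at 7903 ± 547 FPKM (limma adjusted p = 0.0113). At rest, where the muscle sums overlapped, Myl1 measured 12893 ± 1509 FPKM in WT and 8242 ± 950.0 FPKM in HDAC3-KO without overlap (limma adjusted p = 0.0564), and the authors' deposited table called it (q = 0.0144). The nerve sums were 19.5 to 22.7 and 15.9 to 18.7 FPKM, and those of smooth muscle 31.8 to 40.5 and 31.1 to 31.6 FPKM. The part of these cells in the transferase values was not tested.

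The genes whose pattern was most like that of Gstm2 were ranked by Pearson's r of log2(FPKM + 1) over the 12 libraries, each gene centred on its table's mean, among 8854 genes. They were Creg1 (r = 0.984), which encodes a secreted glycoprotein of the endolysosome, Pla2g7 (0.983), a lipoprotein-associated phospholipase, Srrm4os (0.982), Hoxa4 (0.982), a homeobox factor, and Gng2 (0.978), a G protein subunit. Srrm4os lies antisense to Srrm4, and reads of the pair cannot be told apart without strand. All points share the same libraries and the same genotype contrast. Pla2g7 measured 40.0 ± 3.84 FPKM in WT rest, 84.3 ± 14.8 in HDAC3-KO rest, 44.8 ± 4.44 in WT exercise and 91.8 ± 10.2 in HDAC3-KO exercise. Creg1 measured 24.9 ± 3.02, 43.8 ± 1.49, 26.2 ± 2.13 and 41.7 ± 2.16 FPKM in the same order.

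Among the members, libraries of 1 group also varied together in places. After each group's mean was removed, the deviations of Gstm2 over the 12 libraries had a Pearson r of 0.65 with those of Gstm5 and 0.64 with those of Gstm1, although Gstm5 and Gstm2 differed in direction between the genotypes. Gstm5 and Gstk1 had an r of 0.87, and Gstm4 and Gstp1 an r of -0.69. These are descriptions over libraries that may share preparation and scaling, and the mu copies can share reads.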

How the data were processed

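RNA was sequenced from quadriceps muscle in 4 groups of 3 libraries, and the 4 GRO-seq libraries were not used here. TopHat2, Cuffdiff, Bowtie and HOMER are the tools and mm9 the build, per the submitters' processing notes; versions, annotation, strandedness, filters and normalization settings are not given in the sources used here. The authors deposited FPKM per library and the p-values and q-values of their own comparison, in 2 tables whose own names give rest and exercise. No counts were used and depth is unknown. In addition, 27 rows of the exercise table, whose gene names had become dates, were left out of the tests.

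The genes tested by the authors were those with a deposited p-value under 1. limma 3.58.1 (R 4.3.3) was fitted within each table to log2(FPKM + 1) of these genes, as a two-sided moderated test with a trend of variance on level and Benjamini-Hochberg adjustment, and was tested on simulated data. The interaction used all 12 libraries. With 3 libraries a group, the smallest two-sided p of an exact permutation test is 0.1, so none was used. The members and lists were chosen with earlier results of these data known. Named genes were the 10 members, Hdac3, other transferases with a group mean of at least 1 FPKM, up to 4 called genes of lowest p per list and table, and the 5 genes most like the member of largest difference at rest and of highest mean, which was Gstm2 in each case. Nfe2l2, Bach1, Maff, Gss, Gclc, Gclm, Gsr, Taldo1, the marker genes and the genes flanking the mu cluster were named after their values were seen. RefSeq names, gene order and promoter windows came from GRCm38.p6, which differs from mm9, and all 10 members were found there. Alternatives were other added constants (0.1 and 5), a filter at a mean of 1 FPKM, no filter, scaling to 1 median, limma without trend, 1 fit of 12 libraries, a replicate block and leaving out each library.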

Additional observations from a re-analysis of the deposited data

How the results depend on the processing

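Counts of calls moved with several settings, and the cause was not tested. No called difference of a named gene reversed under any alternative that was run. The 3 members called at rest were 2 with the filter at a mean of 1 FPKM, no filter, scaling to 1 median or limma without trend. They were 1 with a replicate block, 1 to 2 with a library left out, and 4 in 1 fit of all 12 libraries or by the authors' q. Gstk1 was called in 3 of the 8 alternatives other than leaving out a library. The 1 member called after exercise (Gstm2) was 1 throughout. Over all genes, 434 calls at rest became 247 with no filter on low values, 672 in 1 fit of all 12 libraries, 52 with the replicate block, 20 to 292 with a library left out (20 without WT library 2) and 998 by the authors' deposited q. The 337 calls after exercise became 109, 586, 170, 70 to 103 and 865 under the same settings. For the other pathway genes, 14 calls at rest became 8 with no filter, 3 with the replicate block, 3 to 12 with a library left out and 22 by the authors' q. Their 8 calls after exercise became 2 with no filter, 5 without the trend, 14 in 1 fit of all 12 libraries, 2 to 3 with a library left out and 17 by the authors' q. The contrast between the conditions had 0 calls and reached 1 without WT exercise library 3. Libraries of the same number did not deviate together (r of -0.00, 0.05 and 0.05 at rest, and of 0.03, -0.33 and -0.18 after exercise). The labels do not say whether these numbers pair samples, and 3 libraries a group cannot decide it. Scaling to 1 median moved the median of all genes by less than 0.1. Depth is unknown, so counting error could not be given for the low members Gstm7, Gstm4 and Gstt1.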
